A study of Mus musculus with 4 samples.

Results

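Proliferating epithelial cells of the mouse trachea were chosen by 6 measured genes, as those in which at least 3 of the proliferation genes Mki67, Top2a, Birc5, Ube2c, Cdk1 and Ccnb1 had 1 or more unique molecular identifier (UMI, a count of 1 captured transcript molecule). They numbered 138 of the 20359 tracheal cells that had at least 300 detected genes and at most 20% mitochondrial UMIs. The cells came from 4 pooled single-cell libraries of mice aged 5 to 8 months, all on the 129S6/SvEvTac background. The genotypes were bgh with a mutation in Spef2 (5 tracheas), Cfap54gt/gt with a gene-trapped Cfap54 (6 tracheas), nm1054 without Cfap221 (6 tracheas) and wild-type (6 tracheas). Pronase freed the cells from the tracheas, plating took away fibroblasts and dead cells were depleted before 8500 cells per library were loaded, with at least 5000 aimed for. The barcodes carried a library number from 1 to 4, and which number stands for which genotype is not given in the labels or headers. Values are therefore given by numbered library, no mutant was compared with wild-type, and with 1 library per genotype no test between groups was made.

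Most cells of the adult trachea rest outside the division cycle. Basal cells, which carry Krt5, and secretory cells, which carry Scgb1a1, are known to divide and renew the epithelium, whereas ciliated cells, which carry Ccdc153, are known as non-dividing. Krt13 marks hillock cells, a flat suprabasal cell known for fast turnover. In a dividing cell, the E2F factors switch on genes for copying DNA in S phase. The B-MYB and FOXM1 factors with the DREAM and MuvB complexes then switch on genes for chromosome condensation, the spindle and cell separation in G2 and mitosis. The 6 genes of the rule belong mainly to this later wave. Mki67 coats mitotic chromosomes, Top2a untangles DNA, Birc5 is a subunit of the chromosomal passenger complex, Ube2c is the ubiquitin-conjugating enzyme of the anaphase-promoting complex, and Cdk1 with Ccnb1 forms the kinase that starts mitosis.

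Promoters of genes of the later wave are known for CCAAT boxes, bound by NF-Y, and for the cell cycle homology region, whose core reads TTTGAA or TTTAAA. 4 of the 6 promoters that the rule rests on are printed to show these letters, those with both features in the last 100 bases before the start. In the same 100 bases Mki67 had 1 TTTGAA or TTTAAA and 0 CCAAT, and Birc5 had 0 of either. Each is the last 100 bases before the RefSeq start in build GRCm38.p6, read in the direction of the gene, with every CCAAT and every TTTGAA or TTTAAA in capitals. On the opposite strand these appear as ATTGG and TTCAAA. The Cdk1 stretch is chr10:69352913-69353012 on the minus strand, that of Ccnb1 is chr13:100786487-100786586 on the minus strand, that of Ube2c is chr2:164769829-164769928 on the plus strand and that of Top2a is chr11:99024190-99024289 on the minus strand.
Cdk1: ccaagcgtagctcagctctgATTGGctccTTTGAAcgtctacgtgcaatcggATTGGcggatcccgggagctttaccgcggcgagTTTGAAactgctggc
Ccnb1: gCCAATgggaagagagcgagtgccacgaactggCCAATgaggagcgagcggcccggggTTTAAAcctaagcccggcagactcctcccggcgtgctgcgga
Ube2c: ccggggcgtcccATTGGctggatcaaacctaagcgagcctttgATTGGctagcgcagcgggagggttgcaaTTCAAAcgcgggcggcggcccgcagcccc
Top2a: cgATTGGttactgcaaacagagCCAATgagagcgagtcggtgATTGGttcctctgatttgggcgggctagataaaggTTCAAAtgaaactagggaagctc

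All 6 rule genes had TTTGAA or TTTAAA on either strand within 250 bases before the start, against 28.1% of the 27025 genes in the RefSeq table. At least 2 CCAAT stood before 5 of the 6, all except Birc5, against 11.5% of all genes. Both features together were held by 5 of 6 rule genes (83.3%), by 18.8% of the 64 rule and listed mitosis genes with a promoter in the table, by 6.67% of 45 replication and nucleotide genes, by 0 of 11 basal cell genes and by 2.76% of all genes. These are matches of letters and were not tested as binding sites.

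The values that chose the cells are given as a description. Top2a was detected in 122 of the 138 proliferating cells (88.4%), Cdk1 in 112 (81.2%), Mki67 and Ube2c in 104 each (75.4%), Birc5 in 101 (73.2%) and Ccnb1 in 63 (45.7%). Outside the rule each was detected in between 0.18% and 0.68% of cells. All 6 genes were found in 28 cells, 5 in 34, 4 in 40 and 3 in 36. Just outside the rule lay 51 cells with 2 of the genes and 411 with 1, and 19759 cells had 0. Cells with 3 of the genes had 4.53 rule-gene UMIs per 10000, against 2.40 in cells with 2, at median depths of 9533.5 and 10884 UMIs. Summed over the proliferating cells of a library and scaled to a library sum of 1000000 (CPM), Cdk1 stood at 147, 103, 181 and 178 CPM in libraries 1 to 4, Mki67 at 187, 116, 168 and 211 CPM, and Ccnb1 at 67.4, 38.7, 66.2 and 57.8 CPM. Library 2 was lowest for all 3 genes.

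Nearly all of the cells carried epithelial markers. Of the 138 cells, 136 (98.6%) carried at least 2 of 5 epithelial markers, Epcam was found in 96.4% and Krt8 in 97.8%. The stromal markers Col1a1, Col1a2, Col3a1, Lum and Pdgfra were at 0 UMIs in all 138 cells, and the other one, Dcn, had 62 UMIs in 28 cells. Leukocyte markers were found in pairs or more in 4 cells, 2 in library 3 and 2 in library 4. Of these 4 cells 1 had Epcam and 1 had Ptprc, the pan-leukocyte surface gene, so the rule admitted a few cells whose epithelial identity is uncertain. Trpm5 of tuft cells, Foxi1 of ionocytes and Resp18 of neuroendocrine cells were at 0.

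Proliferating cells made up 0.525% of the filtered cells of library 1 (20 of 3808 cells, 95% Clopper-Pearson interval 0.321 to 0.810%) and 0.379% of library 2 (15 of 3955, 0.212 to 0.625%). They made up 0.615% of library 3 (44 of 7156, 0.447 to 0.825%) and 1.08% of library 4 (59 of 5440, 0.827 to 1.4%), for 0.678% in all (0.57 to 0.80%). Library 4 was highest, its interval lay above those of the other 3 libraries, and those 3 overlapped one another. The intervals cover counting error only, since there was 1 library per genotype, and plating and dead-cell removal can set such shares. Proliferating cells were deeper than other cells, with median depths of 17987, 22558, 8075 and 11294 UMIs in libraries 1 to 4 against 8836.5, 7143, 5954.5 and 6868 UMIs. With every cell thinned to 3000 UMIs, which left out 4724 shallower cells, 60 of 15635 cells met the rule. The thinned shares were 0.306%, 0.131%, 0.397% and 0.599% in libraries 1 to 4, against 0.681%, 0.490%, 0.831% and 1.34% of the same cells unthinned. Library 4 stayed highest and library 2 lowest, and after thinning the interval of library 4 overlapped those of libraries 1 and 3.

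**Figure D1:**
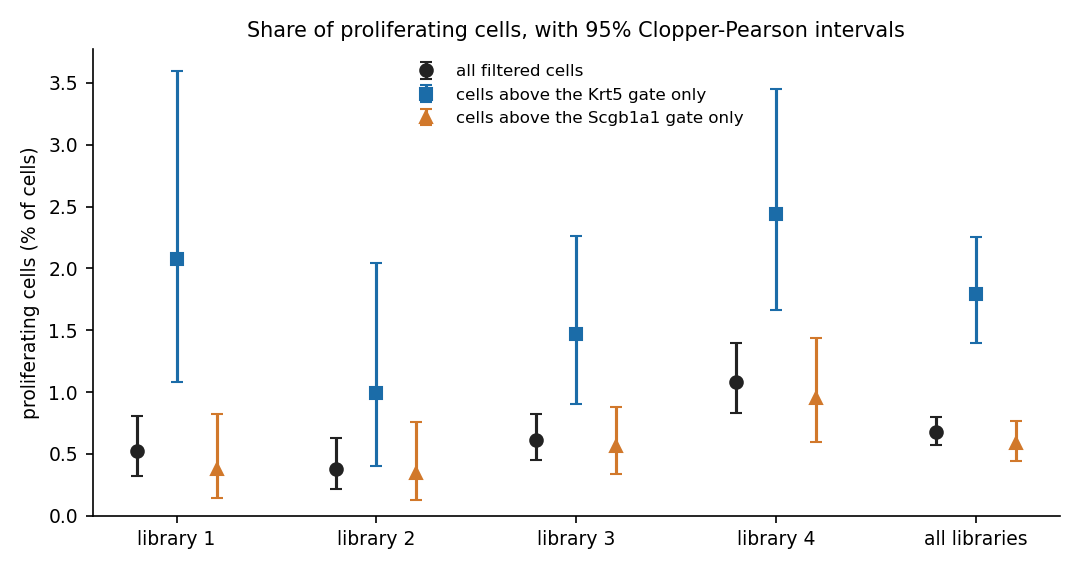
Share of proliferating cells (percent of cells, points with 95% Clopper-Pearson intervals) in libraries 1 to 4 and all libraries together, for all filtered cells, for cells above the Krt5 gate and not the Scgb1a1 gate, and for cells above the Scgb1a1 gate and not the Krt5 gate. Library 4 has the highest share in each set, and in each library the Krt5 point lies above the Scgb1a1 point.

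Krt5 was the most common of the 4 lineage markers in the proliferating cells, and most of the others were above the Scgb1a1 gate. To call a lineage marker, a gate was set for each in the cells with 0 of the rule genes: 1.8 UMIs per 10000 for Krt5, 96.7 for Scgb1a1, 1.76 for Krt13 and 2.94 for Ccdc153. Free RNA makes such gates needed: Scgb1a1 had at least 1 UMI in all 138 proliferating cells, but also in 92.9% of the Ccdc153-gated cells with 0 of the rule genes, whose median depth was 3326 UMIs. Krt5 lay above its gate in 74 proliferating cells (53.6%, 44.9 to 62.1%), against 3833 of 19759 cells with 0 of the rule genes (19.4%). By library this was 12, 8, 22 and 32 proliferating cells, or 60%, 53.3%, 50% and 54.2%. The Krt5 gate was passed by 1.92% of the Ccdc153-gated cells with 0 of the rule genes, and the Scgb1a1 gate by 17.4% of them, so a call by the Scgb1a1 gate separates less well. Scgb1a1 lay above its gate in 57 proliferating cells (41.3%, 33.0 to 50%), against 45.0% of cells with 0 of the rule genes. Krt13 lay above its gate in 19 proliferating cells (13.8%, 8.50 to 20.7%), against 3.25%. Ccdc153 lay above its gate in 7 proliferating cells (5.07%, 2.06 to 10.2%), against 26.4%. Within 2-fold of the gate lay 12 proliferating cells for Krt5, 9 for Scgb1a1, 25 for Krt13 and 14 for Ccdc153, so the Krt13 and Ccdc153 counts rest on few UMIs per cell.

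The 2 main lineage markers rarely met in a cell. Krt5 without Scgb1a1 was called in 70 proliferating cells (50.7%), Scgb1a1 without Krt5 in 53 (38.4%), both in 4 and neither in 11. Of the 70, 16 were also above the Krt13 gate and 2 above the Ccdc153 gate. Of the 53, 2 were above the Krt13 gate and 5 above the Ccdc153 gate. Median depth was 8448.5 UMIs in the 70 cells and 19530 in the 53, against 4181 and 12224 UMIs in cells of the same gates with 0 of the rule genes. Of the 11 cells with neither marker, 3 had leukocyte markers, 3 had markers of deuterosomal cells, the precursors that multiply centrioles before growing cilia, and 5 had Epcam and neither set. Markers of neuroendocrine cells were found in pairs or more in 3 of the 53 Scgb1a1-only cells. Of the 138 cells, 8 (5.8%) were among the 888 cells with the highest doublet scores, against 4.36% of all cells, and 2 of these 8 were among the 4 with both markers.

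**Figure D2:**
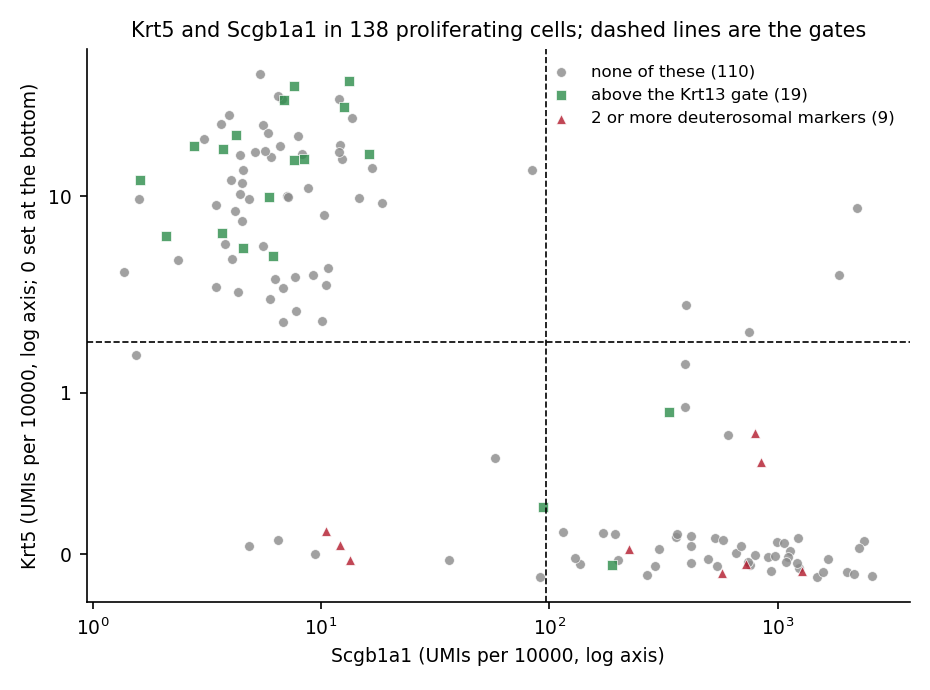
Krt5 against Scgb1a1 in each of the 138 proliferating cells, both in UMIs per 10000 on log axes with cells without Krt5 set at the bottom, and dashed lines at the gates of 1.8 and 96.7. Colour and shape mark cells above the Krt13 gate and cells with at least 2 deuterosomal markers; 70 cells lie above the Krt5 gate alone, 53 above the Scgb1a1 gate alone and 4 above both.

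Cells of the Krt5 gate were proliferating more often than cells of the Scgb1a1 gate in every library. The share was 1.79% above the Krt5 gate alone (70 of 3913 cells, 1.4 to 2.25%) and 0.589% above the Scgb1a1 gate alone (53 of 9003, 0.441 to 0.769%). By library the Krt5 share was 2.08%, 0.996%, 1.47% and 2.44%, and the Scgb1a1 share was 0.380%, 0.347%, 0.563% and 0.950%. The intervals of the 2 gates overlapped in library 2 and not in the other 3 libraries. After thinning to 3000 UMIs the shares were 1.16% (34 of 2923 cells) and 0.212% (18 of 8471). By library the thinned Krt5 share was 0.996%, 0.545%, 1.66% and 1.20%, and the thinned Scgb1a1 share 0.0724%, 0.0604%, 0.184% and 0.459%. The thinned intervals of the 2 gates overlapped in libraries 1, 2 and 4 and not in library 3. Among Krt5 cells, those also above the Krt13 gate were proliferating in 16 of 402 cases (3.98%, 2.29 to 6.38%), against 54 of 3511 without Krt13 (1.54%, 1.16 to 2.0%). These 16 cells were 3 of 42 cells in library 1, 0 of 43 in library 2 (which allows up to 6.98%), 5 of 137 in library 3 and 8 of 180 in library 4. Median depth was 5286 UMIs in Krt5 cells with Krt13 and 4141 in those without, and this split was not adjusted for depth. Of the 4295 cells above the Ccdc153 gate and below both the Krt5 and Scgb1a1 gates, 0 were proliferating, which allows a share of up to 0.0698%. Their median depth was 2618 UMIs, against 4259 above the Krt5 gate alone and 12373 above the Scgb1a1 gate alone. The rule finds fewer cells at low depth, and this 0 was not adjusted for depth.

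Genes of S phase were found together in a part of the proliferating cells. Rrm2, Tyms, Pclaf, Tk1, Clspn and Ccne2, 6 genes of S phase that the rule did not use, make nucleotides (Rrm2, Tyms, Tk1), ride on the replication clamp (Pclaf), guard the fork (Clspn) or start S phase (Ccne2). Pclaf was found in 62 of the 138 proliferating cells (44.9%), Tyms in 57, Tk1 in 42, Clspn in 31, Rrm2 in 30 and Ccne2 in 14. At least 3 of these genes were found in 41 proliferating cells (29.7%, 22.2 to 38.1%), against 7 of the 20221 cells outside the rule. By library the share was 25%, 20%, 18.2% and 42.4%, highest in library 4, but after thinning to 3000 UMIs it was 5.0%, 6.67%, 4.55% and 6.9% with overlapping intervals. Pclaf stood highest in library 4, at 64.9, 35.5, 66.2 and 135 CPM in libraries 1 to 4. The share was 28.6% of the 70 Krt5-only cells and 32.1% of the 53 Scgb1a1-only cells, and after thinning 8.57% (6 of 70) and 1.92% (1 of 52), so no order is read from it. Among the Krt5-only cells it was 5.00% in library 3 (1 of 20) and 45.2% in library 4 (14 of 31). By the number of rule genes found, it was 19.4% of cells with 3, 30% with 4, 44.1% with 5 and 25% with 6, against 7.84% of cells with 2. After thinning to 3000 UMIs the share over all proliferating cells was 5.84%, so the count of S phase genes per cell moved with depth.

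Summed over 3 replication lists (helicase loading, the fork and nucleotide synthesis), the median proliferating cell had 17.6 UMIs per 10000. Summed over 3 mitosis lists (kinases and checkpoint, motors and spindle, kinetochore), none holding a rule gene, it had 29.2 per 10000. The medians were 21.0 and 36.8 in Krt5-only proliferating cells, against 6.76 and 0 in Krt5-gated cells with 0 of the rule genes. They were 13.2 and 21.9 in Scgb1a1-only proliferating cells, against 2.94 and 0.650 in Scgb1a1-gated cells with 0 of the rule genes. Cells with 2 rule genes, just outside, had 8.63 and 9.43 per 10000, against 15.9 and 21.9 in cells with 3.

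**Figure D3:**
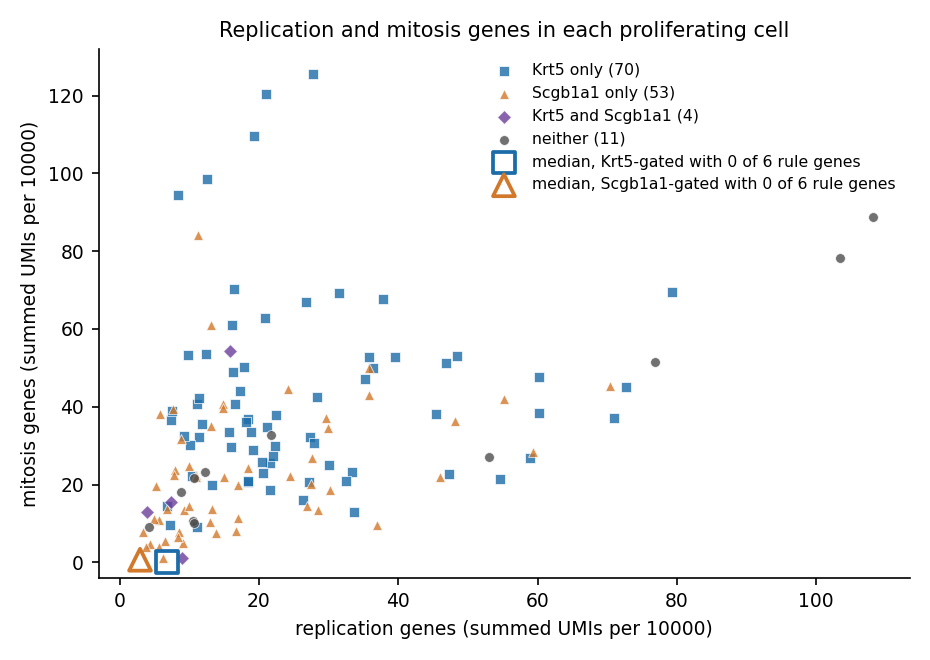
Summed UMIs per 10000 of replication genes (horizontal) and of mitosis genes without the rule genes (vertical) in each proliferating cell, by the lineage gates it passed; open symbols are the medians of gated cells with 0 of the rule genes. Some proliferating cells have more replication than mitosis UMIs (such as 54.6 and 21.3 per 10000) and others the reverse (such as 8.34 and 94.5). The highest replication values, 108 and 103 per 10000, came with high mitosis values, 88.8 and 78.4, both in cells that passed neither gate. Of the 11 cells of that class 3 had leukocyte markers, so the epithelial identity of these extremes is uncertain. The medians of the proliferating cells, 17.6 and 29.2, lie above both open symbols.

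Genes of DNA copying, chromosome condensation and the spindle were higher in Krt5-gated proliferating cells than in Krt5-gated cells of the same library with 0 of the rule genes, and the basal keratin Krt14 was higher with them. UMIs were summed over the cells of a library and compared as log2 of CPM with 5 CPM added to both sides, which understates the change of low genes. A gene with at least 50 UMIs over both sides was called higher or lower where it differed at least 2-fold in the same direction in all 4 libraries. The sums came from 12, 8, 22 and 32 proliferating cells in libraries 1 to 4, where 1 UMI was worth 5.41, 8.56, 6.11 and 3.32 CPM, against 537, 691, 1365 and 1240 cells. The rule genes chose both sides of this contrast, and genes that move with them had to differ, so the counts are a description. Over all proliferating cells against all others, 226 of 13276 genes were called higher (1.7%) and 75 lower (0.565%), a contrast that also mixes lineages and gave 158 higher and 148 lower with TMM scaling. Of 10150 genes, 120 were called higher (1.18%) and 41 lower (0.404%), at a median log2 ratio of 0.01. Scaled by TMM size factors, which move the median of all genes by -0.17, the calls were 100 higher and 64 lower. Thinned to 3000 UMIs, 53 of the 120 higher and 22 of the 41 lower genes were still called. Thinning also made the sums smaller, with 8 cells of 3000 UMIs each in library 2, so 1 UMI was worth more than 8.56 CPM there. The effects of cell depth and of smaller sums on these counts were not told apart.

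Of 269 listed cell cycle genes other than the rule genes, 174 had at least 50 UMIs. Of these 62 were higher (35.6%) and 0 lower, with a median log2 ratio of 1.36. Including the rule genes, the cycle lists held 68 of the 120 genes called higher (56.7%).

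Copying of DNA begins with helicase loading, and 5 of 11 genes of the pre-replication complex and helicase were higher (median 1.68). Mcm5, a subunit of the MCM helicase, stood at 48.7, 77.1, 30.5 and 56.4 CPM in Krt5-gated proliferating cells of libraries 1 to 4, against 1.63, 1.91, 2.65 and 2.14 CPM in cells with 0 of the rule genes. The groups did not overlap, and the median log2 ratio of Mcm5 was 3.06 (2.22 to 3.57 over the 4 libraries). Of 19 genes of the replication fork 9 were higher (median 1.5), among them Rfc4 of the clamp loader (2.45) and Lig1, the ligase that seals Okazaki fragments (2.43). Pclaf was at 81.1, 60.0, 12.2 and 143 CPM in the proliferating cells, against 1.09, 0.478, 0.165 and 0.153 CPM, with library 3 lowest and library 4 highest. In nucleotide synthesis 1 of 11 genes was higher (median 0.68). That gene was Rrm1, a subunit of ribonucleotide reductase, at 48.7, 42.8, 30.5 and 103 CPM against 4.35, 5.98, 5.29 and 4.90 CPM (2.32). Tyms, the thymidylate synthase, missed the call at 27.0, 17.1, 6.11 and 66.4 CPM against 3.8, 5.98, 4.96 and 5.97 CPM.

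Histone and chromatin genes followed. Of 10 replication-dependent histone genes, which are known for making mRNA mostly without a poly(A) tail, 4 were higher (median 1.39). H2ac24, a histone H2A gene, stood at 844, 531, 324 and 627 CPM in the proliferating cells of libraries 1 to 4, against 25.5, 14.4, 9.59 and 15.6 CPM (log2 ratio 4.79, 4.49 to 4.94). The linker histone H1f5 ranged most, with 157, 42.8, 30.5 and 342 CPM against 2.72, 1.20, 0.827 and 2.14 CPM. The assay reads polyadenylated RNA from its 3′ end and histone copies are alike in sequence, so the split of reads among copies is uncertain. Of 20 chromatin genes 6 were higher (median 1.20), and Hmgn2, a nucleosome-binding protein, had a median of 1.94. Stmn1, which takes microtubules apart, stood at 752, 582, 898 and 1348 CPM in the proliferating cells, against 99.2, 77.7, 135 and 93.4 CPM (2.84, 2.69 to 3.78). Stmn1 was found in 98.6% of the 70 Krt5-only proliferating cells, against 34.9% of Krt5-only cells with 0 of the rule genes.

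Of 14 cyclins, CDKs and their partners 3 were higher (median 0.89), Ccnb2, Cks1b and Cks2. Cks2, the small subunit that docks on CDKs, stood at 341, 240, 440 and 422 CPM in Krt5-gated proliferating cells, against 64.1, 51.9, 55.7 and 60.8 CPM (2.51, 2.11 to 2.87). Ccnd1, the D-type cyclin of early G1, stood at 168, 197, 165 and 129 CPM, against 183, 117, 142 and 165 CPM, and the groups overlapped. Among 15 cell cycle brakes 2 were higher, the pocket protein gene Rbl1 (2.57) and the CDK4 and CDK6 inhibitor gene Cdkn2d (1.22). Cdkn1a, which encodes the CDK inhibitor p21, was high on both sides, at 1525, 908, 1216 and 1198 CPM in proliferating cells against 968, 1121, 1230 and 973 CPM (0.14, uncalled). Cdkn1c, which encodes the CDK inhibitor p57, was lower in each library without reaching 2-fold in all, at 16.2, 17.1, 24.4 and 16.6 CPM against 41.3, 46.9, 42.5 and 31.6 CPM (-0.94). Myc, the growth factor-responsive transcription factor, stood at 227, 128, 110 and 136 CPM against 247, 265, 217 and 194 CPM (-0.72, uncalled). Of 10 cell cycle transcription factors, Lin9 of the MuvB complex was the 1 called higher (1.47).

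The mitotic genes had the largest ratios. Of 14 motors, spindle and cytokinesis genes 12 were higher (median 3.89), of 9 kinetochore genes 6 (3.35) and of 8 mitotic kinases and checkpoint genes 4 (2.92). Anln, an actin-binding scaffold of the contractile ring, stood at 178, 137, 153 and 186 CPM in Krt5-gated proliferating cells, against 3.26, 0.478, 2.98 and 2.30 CPM (4.58, 4.31 to 4.71). Racgap1, a subunit of the centralspindlin complex that positions that ring, stood at 97.3, 103, 122 and 99.6 CPM, against 0.815, 0.957, 0.662 and 0.613 CPM (4.20, 4.14 to 4.49). The proliferating values of Anln and Racgap1 differed by less than 1.5-fold among the 4 libraries. Cdca8, or borealin, a partner of Birc5 in the passenger complex, stood at 211, 60.0, 263 and 202 CPM, against 0.543, 1.91, 1.32 and 0.766 CPM. Cenpf, a kinetochore protein, stood at 211, 60.0, 250 and 229 CPM, against 2.99, 3.35, 3.14 and 1.69 CPM. Library 2, with 8 cells in the sum, was the low library for Cdca8 and Cenpf. Cdc20, which activates the anaphase-promoting complex, was also lowest in library 2, at 173, 51.4, 128 and 169 CPM against 0.815, 2.87, 2.32 and 1.53 CPM, and was the 1 gene called among 10 of the APC/C and SCF list.

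Of 11 cohesin, condensin and separase genes 5 were higher (median 1.41). Smc2, the core of condensin, stood at 189, 163, 214 and 249 CPM in proliferating cells, against 5.43, 0.957, 4.8 and 4.29 CPM (4.63, 4.22 to 4.82). Of 8 centriole duplication genes 2 were higher, Cdk5rap2 (1.61) and Plk4, the kinase that starts a new centriole. Plk4 stood at 43.3, 34.3, 79.4 and 73.0 CPM, against 7.34, 5.50, 5.79 and 6.13 CPM (2.39, 1.90 to 2.97), and was found in 45.7% of Krt5-only proliferating cells against 2.70%.

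No gene of the growth lists was called in the Krt5 contrast, where 1.18% of all genes were called higher and 0.404% lower. At these shares, 0 calls in lists this short do not set the growth genes apart. None of 15 ribosome biogenesis genes (median -0.25), none of 12 glycolysis genes (0.05) and none of 13 genes of EGF ligands and growth factor receptors (-0.10) was called. Npm1, a nucleolar chaperone, stood at 1460, 1584, 1405 and 1394 CPM in Krt5-gated proliferating cells against 1579, 1508, 1482 and 1368 CPM. Hbegf, an EGF receptor ligand, stood at 449, 360, 220 and 319 CPM against 753, 909, 690 and 602 CPM, below in each library without a 2-fold difference in all (-1.12, -1.63 to -0.74).

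**Figure D4:**
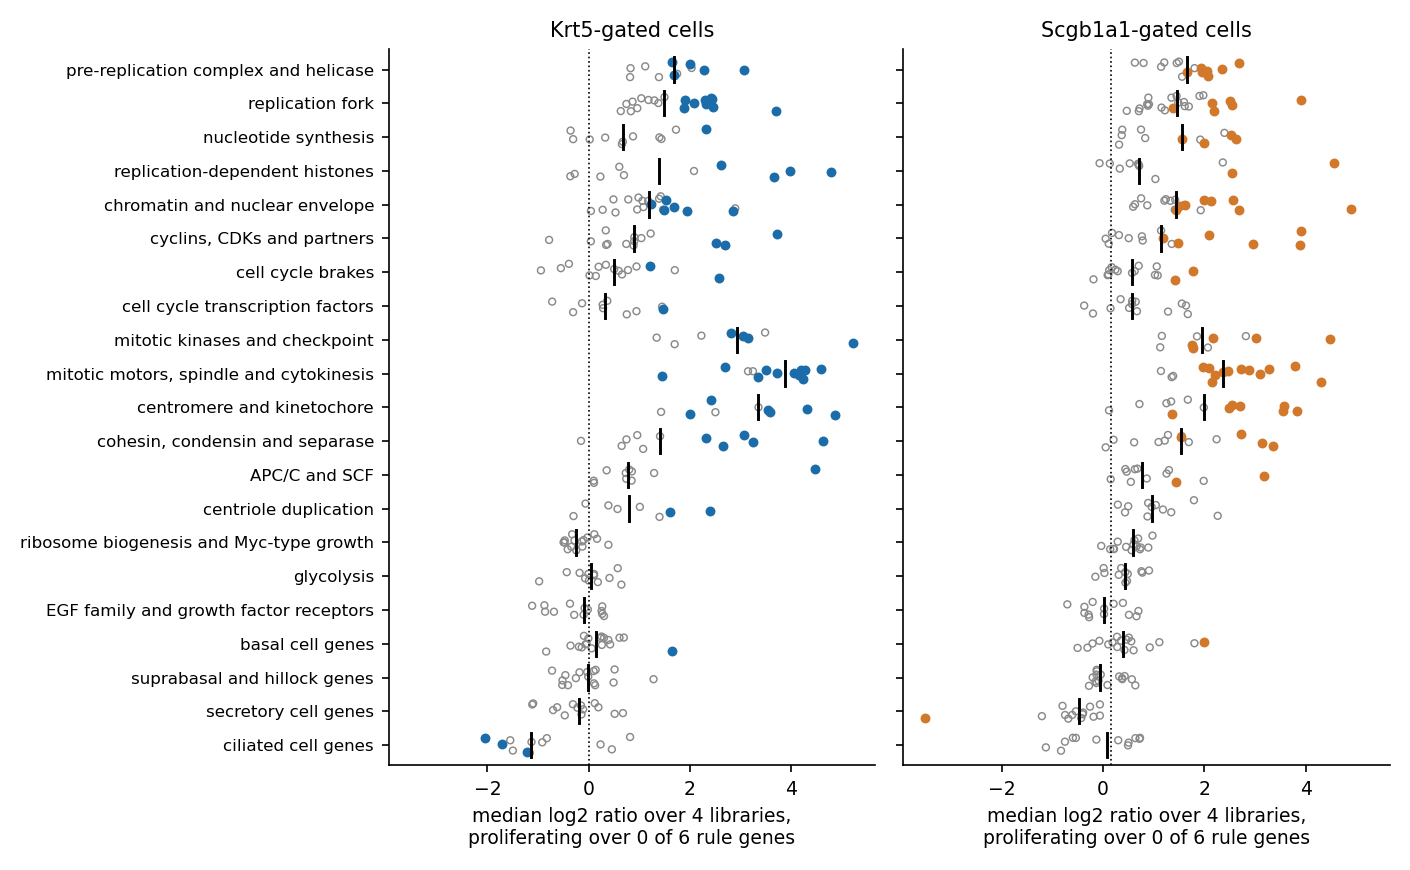
Median log2 ratio over 4 libraries of listed genes with at least 50 UMIs, in proliferating cells over cells with 0 of the rule genes, for Krt5-gated cells (left) and Scgb1a1-gated cells (right). Filled points are called genes, open points uncalled ones, black bars list medians and the dotted line the median of all genes; motors and spindle genes lie farthest to the right in both, with medians of 3.89 and 2.36, and growth lists lie near the dotted line in Krt5-gated cells.

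Among 18 basal cell genes 1 was called. Krt14, the partner keratin of Krt5, stood at 3115, 1987, 1497 and 764 CPM in Krt5-gated proliferating cells of libraries 1 to 4, against 403, 521, 579 and 342 CPM in cells with 0 of the rule genes (1.64, 1.15 to 2.93). The groups did not overlap, and library 1 was highest and library 4 lowest. Krt14 was found in 64.3% of the 70 Krt5-only proliferating cells against 26%, and in 52.9% against 23.2% after thinning. Krt5, on which the cells were gated, stood at 1687, 1062, 990 and 1398 CPM, against 801, 658, 715 and 965 CPM, and was not called. Trp63, the master transcription factor of basal cells, stood at 32.4, 42.8, 12.2 and 33.2 CPM, against 36.7, 34.2, 27.8 and 36.5 CPM, with overlap. None of 16 suprabasal and hillock genes was called, and Krt13 stood at 103, 68.5, 177 and 335 CPM against 69.0, 141, 129 and 197 CPM.

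Of the Yap and Wnt targets, Sox9 and Ccn2 were called, in opposite directions. Sox9, a transcription factor of airway progenitors and submucosal glands, stood at 200, 171, 159 and 29.9 CPM in Krt5-gated proliferating cells, against 14.1, 41.4, 42.3 and 10.6 CPM (1.86, 1.16 to 3.42). Library 4 had the lowest Sox9 on both sides. Sox9 was found in 28.6% of Krt5-only proliferating cells against 7.44%, and in 20% against 4.78% after thinning. Ccn2, a secreted matricellular protein and Yap target, was lower, at 5.41, 25.7, 36.7 and 6.64 CPM from 12 UMIs in all, against 73.1, 99.0, 79.1 and 79.2 CPM (-2.31, -2.91 to -1.01). In library 3 the Ccn2 difference was near 2-fold.

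Outside the lists, Tubb5, a beta-tubulin of dividing cells, stood at 568, 694, 586 and 1069 CPM in Krt5-gated proliferating cells, against 73.4, 58.6, 80.2 and 96.1 CPM (3.14, 2.80 to 3.46). Cdca3, a trigger of mitotic entry (4.11), and Knstrn, a spindle protein of kinetochores (2.95), are likewise known cell cycle genes. Lgals7, a galectin of stratified epithelia, stood at 346, 334, 305 and 113 CPM, against 11.1, 77.3, 40.5 and 18.7 CPM (2.54, 2.04 to 4.44). Igfbp2, a binding protein of insulin-like growth factors, stood at 91.9, 111, 85.5 and 73.0 CPM, against 5.16, 17.5, 15.4 and 10.7 CPM (2.34, 2.15 to 3.25). Lgals7 was found in 21.4% of Krt5-only proliferating cells against 3.67%, and Igfbp2 in 32.9% against 4.07%. Among the lower genes, Abi3bp, an extracellular matrix protein, stood at 103, 77.1, 85.5 and 139 CPM against 562, 321, 294 and 363 CPM (-1.86, -2.40 to -1.35). Fbxo32, a ubiquitin ligase subunit known from muscle atrophy, stood at 21.6, 8.56, 30.5 and 33.2 CPM against 83.1, 81.3, 85.0 and 88.2 CPM. B3galt2 had 0 UMIs in the 74 Krt5-gated proliferating cells, against 14.4, 15.3, 15.1 and 13.8 CPM. With 1 UMI worth 5.41, 8.56, 6.11 and 3.32 CPM, a limit of 3 UMIs lies above the other side in libraries 1 to 3. The 0 of B3galt2 therefore does not show a lower level in those libraries taken singly. Of 12 ciliated cell genes 3 were lower in the proliferating cells, Fam183b, Tmem212 and Dynlrb2, against 0.404% of all genes. The list did not move as a whole, since 3 of the 12 had a median above 0. Summed, it stood at 355 to 580 CPM in proliferating cells against 247 to 462 CPM, with overlap. Ccdc153 was found in 8.57% of Krt5-only proliferating cells against 3.78%.

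The Krt5-gated proliferating cells were deeper, with a median of 8645 UMIs against 4241. Thinned to 3000 UMIs, Krt14 and Igfbp2 were not called in every library (medians 1.84 and 2.31), and against cells of similar depth Lgals7 was not (2.42). Ccn2, at 12 UMIs, was not called in either of these fits, and Sox9 was not with 20 CPM added (1.58).

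**Figure D5:**
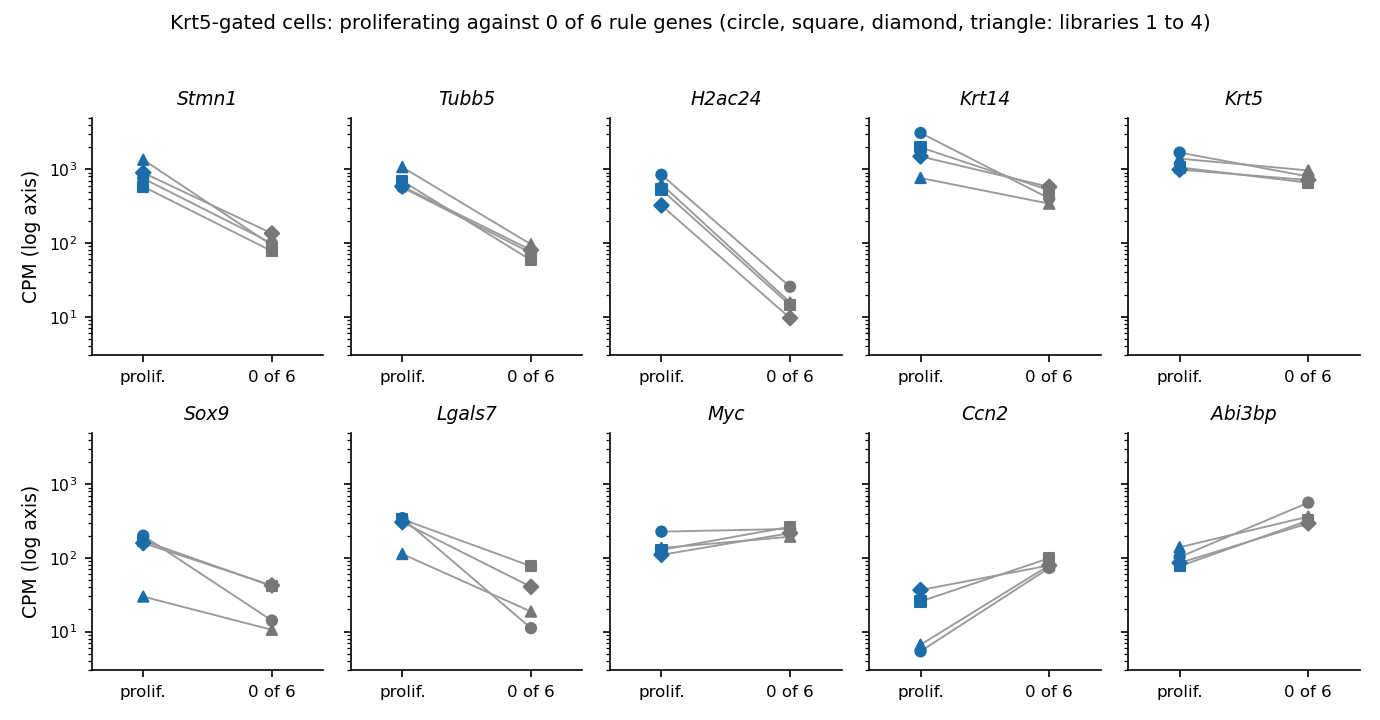
CPM (log axis) of 10 genes in Krt5-gated proliferating cells (left of each panel) and Krt5-gated cells with 0 of the rule genes (right), each line joining the values of 1 library. Stmn1, Tubb5, H2ac24, Krt14, Sox9 and Lgals7 fall from left to right in all 4 libraries, Ccn2 and Abi3bp climb in all 4, and Krt5 and Myc change by less than 2-fold in most.

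In Scgb1a1-gated cells, genes of the spindle, the kinetochore and DNA copying were higher in proliferating cells, and the median of each of 14 secretory genes lay below 0. This contrast was added after the Krt5 contrast had been seen. The sums came from 6, 7, 21 and 23 proliferating cells, with 1 UMI worth 5.68, 4.91, 3.38 and 2.21 CPM, against 1547, 1714, 3352 and 2279 cells with 0 of the rule genes. Of 12356 genes 122 were higher (0.987%) and 11 lower (0.089%), at a median log2 ratio of 0.16. TMM moved that median by -0.30 and gave 81 higher and 21 lower. The proliferating cells were deeper, with a median of 18532 UMIs against 12223, and thinned to 3000 UMIs 27 of the 122 higher and 5 of the 11 lower genes were still called. The thinned sum of library 1 held 6 cells of 3000 UMIs each, so 1 UMI was worth more than 5.68 CPM there. Of 203 listed cycle genes 67 were higher (33.0%) and 0 lower (median 1.35). Of the genes called higher 63 were shared with the Krt5 contrast, 52.5% of its 120 and 51.6% of the 122, and 17 of the shared genes were outside the cycle lists. The 2 contrasts share 4 cells above both gates.

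By list, 12 of 15 motors and spindle genes (median 2.36), 7 of 13 kinetochore genes (1.99), 7 of 15 helicase loading genes (1.66) and 6 of 23 fork genes (1.45) were higher in Scgb1a1-gated proliferating cells. Prc1, which bundles microtubules of the spindle midzone, stood at 79.6, 88.4, 159 and 179 CPM in proliferating cells of libraries 1 to 4, against 1.30, 1.18, 1.38 and 1.15 CPM (4.30, 3.75 to 4.91). Stmn1 stood at 466, 275, 845 and 841 CPM against 13.6, 12.2, 19.2 and 18.3 CPM (4.90, 4.03 to 5.18). Stmn1 was found in 98.1% of the 53 Scgb1a1-only proliferating cells against 16.6%, and in 76.9% against 4.14% after thinning. Cks2 stood at 96.6, 162, 172 and 221 CPM against 4.01, 4.71, 8.39 and 5.50 CPM (3.92). H2ac24 stood at 392, 162, 152 and 170 CPM against 5.11, 4.88, 1.73 and 2.26 CPM (4.57). Mcm5, at 17.1, 24.6, 27.0 and 22.1 CPM against 0.377, 0.357, 0.621 and 0.688 CPM, was also called (2.36). No gene of the growth lists was called here, where 0.987% of all genes were called higher and 0.089% lower, so this does not set them apart either. Of 15 ribosome biogenesis genes 14 had a median above 0 (list median 0.60), summing to 1808 to 2102 CPM against 1287 to 1404 CPM. Of 12 glycolysis genes 11 did (0.44), at 1878 to 2402 CPM against 1438 to 1624 CPM. Of 13 EGF ligand and growth factor receptor genes 7 did (0.02). The median of all genes was 0.16.

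Of 14 secretory genes 1 was called, and 0 had a median above 0 (list median -0.48, against 0.16 for all genes). Summed, the list stood at 198985 to 265059 CPM in the proliferating cells of the 4 libraries, against 336469 to 368568 CPM, without overlap. Tff2, a trefoil factor of mucous cells, had 11 UMIs in Scgb1a1-gated proliferating cells, at 11.4, 14.7, 0 and 13.3 CPM, against 250, 92.7, 79.3 and 148 CPM (-3.51, -4.08 to -2.31). Scgb1a1, the gated secretoglobin of club cells, stood at 103310, 69853, 107770 and 71885 CPM in proliferating cells, against 168730, 136810, 133670 and 133190 CPM (-0.80, -0.97 to -0.31). It was below its counterpart in all 4 libraries and stayed under 2-fold. Scgb3a1, another secretoglobin, stood at 12171, 26123, 19863 and 8701 CPM against 43881, 34847, 35406 and 26008 CPM (-1.21, uncalled). Lyz1, a lysozyme (-2.35), and Cyp2a5, a cytochrome P450 (-1.18), were lower outside the lists. Among basal genes Dapl1 was the 1 higher, at 34.1, 68.8, 23.7 and 46.4 CPM against 4.56, 5.28, 8.28 and 8.42 CPM. Of the genes higher outside the lists, Cxcl10, an interferon-induced chemokine, stood at 165, 609, 142 and 57.5 CPM against 24.5, 21.7, 24.4 and 18.4 CPM, and Ptn, the growth factor pleiotrophin, at 28.4, 98.2, 74.3 and 57.5 CPM against 1.89, 2.96, 4.07 and 3.70 CPM.

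Secretory genes were higher and basal genes lower in the 53 Scgb1a1-only than in the 70 Krt5-only proliferating cells. The gates themselves fix this separation, and the comparison was added after the data had been seen. Of 4340 genes, 115 were higher in the Scgb1a1-only cells (2.65%) and 156 lower (3.59%), at a median log2 ratio of -0.28. Of 13 secretory genes 11 were higher, and Scgb3a1 stood at 13664 CPM in Scgb1a1-only against 150 CPM in Krt5-only proliferating cells. Of 15 basal genes 10 were lower, and Krt14 stood at 5.65 CPM against 1788 CPM. Sox9 was at 4.7 CPM against 124 CPM. Of the list of immediate early and heat shock genes, 4 of 14 were lower, Atf3, Ier3, Jun and Zfp36, and Jun stood at 857 CPM against 3897 CPM. Most cell cycle genes were not called. The exceptions included the histone genes H1f5, H2ac24 and H2ac8, and Kif11, a spindle motor, Smc2 and Orc6, of the origin recognition complex, which were lower in the Scgb1a1-only cells, and Cdk6, which was higher. Summed, the 6 rule genes stood at 773 CPM in Scgb1a1-only against 1477 CPM in Krt5-only proliferating cells, which were the shallower cells. The rule chose the cells by detection of these same genes, and a shallower cell needs a higher level to pass it. No order of the lineages is therefore read from these sums.

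A small group joined proliferation genes with genes of centriole multiplication. At least 2 of 6 deuterosomal markers were found in 9 proliferating cells, 3, 2, 1 and 3 in libraries 1 to 4. All 9 had Deup1, the scaffold of the deuterosome, all 9 had Ccno and 7 had Mcidas, regulators of multiciliation, and 8 had Foxj1, the factor of motile cilia. Of the 9 cells 6 were above the Scgb1a1 gate, 0 above the Krt5 gate and 3 above neither. The rule genes were found in other proportions than in the remaining 129 proliferating cells, a description of 9 cells. Cdk1 was found in 9 of 9 and Top2a in 8 of 9, against 79.8% and 88.4% of the others. Mki67 was found in 3 of 9 (33.3%) against 78.3%, and Birc5 in 2 of 9 (22.2%) against 76.7%. At least 3 of the 6 S phase genes were found in 0 of 9, which allows up to 33.3%, against 41 of 129. The 9 cells were deep, with a median of 21604 UMIs against 11111. Myb, a transcription factor of S phase and of multiciliation, was called higher in the Scgb1a1-gated contrast (1.64) and had a median of 0.00 there once the deuterosomal and leukocyte cells were left out.

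Between libraries, of 2774 genes with at least 100 UMIs in proliferating cells, 382 (13.8%) differed at least 2-fold between the highest and the lowest library with Poisson intervals that did not overlap. Among the Krt5-gated proliferating cells 217 of 1203 genes did (18%). These intervals cover counting error only, and the libraries hold different mixtures of Krt5 and Scgb1a1 cells. The 5 genes with the widest ratio were eGFP, Hba-a1, Hbb-bs, Dbi and Cd74. The eGFP feature stood at 572, 165, 0 and 337 CPM in proliferating cells of libraries 1 to 4, from 5, 13, 0 and 9 cells, and no source used here says which mice carried a reporter. Hba-a1 and Hbb-bs, of haemoglobin, had UMIs in library 4 alone, and 99.6% and 100% of them came from 1 cell. Cd74, the invariant chain of antigen presentation, stood at 2.50, 0, 329 and 18.0 CPM, with 98.7% of the library 3 UMIs in 1 cell. Dbi, the acyl-CoA-binding protein, was spread over most cells, at 369, 239, 0 and 319 CPM from 20, 14, 0 and 56 cells, so library 3 had 0 UMIs in 44 proliferating cells. Taking 3 UMIs as the floor in library 3, Dbi was at least 55.8-fold lower there than in the highest library. Of the mutated genes, Cfap221 had 0, 1, 0 and 2 UMIs, Cfap54 had 12, 1, 1 and 4 and Spef2 had 9, 6, 9 and 8 UMIs in proliferating cells of libraries 1 to 4, and none was used to assign a genotype.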

How the data were processed

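The authors deposited raw counts of UMIs per gene and cell barcode for 4 libraries in 1 matrix, which is not scaled. It was written by Cell Ranger 6.0.1, per the file headers, and used build GRCm39, per the submitters' processing notes. The annotation release is not given in the sources used here. There were 21667 barcodes and 22583 features. Libraries 1 to 4 held 44520016, 39658153, 53491773 and 47459846 UMIs. Keeping cells with at least 300 genes and at most 20% mitochondrial UMIs removed 1308 barcodes and left 20359. Libraries shared 49 barcode sequences, and 0 of these belonged to proliferating cells. UMIs are tags of the transcript end, so CPM is not per length and levels of different genes are not compared.

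Gates for Krt5, Scgb1a1, Krt13 and Ccdc153 were Otsu splits of log-scaled UMIs per 10000 in cells with 0 of the rule genes. Shares have 95% Clopper-Pearson intervals, sums 95% Poisson intervals, and a count of 0 is read as a limit of 3 counts. Calls need a 2-fold difference in all 4 libraries with 5 CPM added and 50 UMIs over both sides. The calling was run on simulated counts with changes much larger than 2-fold and without variation between cells. That run does not show how often calls near 2-fold are wrong in these data. No p-value was made: a genotype held 1 library, and in the contrasts within libraries the cells on both sides were chosen by measured values. Doublet scores were taken within each library; an automatic threshold marked 9 cells (0.0442%) and was not used. Instead the 888 highest-scoring cells, by a rate of 0.8% per 1000 cells, were left out as an alternative. Software was Python 3.11.15, numpy 2.4.6, scipy 1.17.1, pandas 2.3.3, scanpy 1.11.5, R 4.3.3, edgeR 4.0.16 (TMM factors) and DESeq2 1.42.0 (size factors).

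Members, 33 gene lists (471 genes, 2 of them without a feature) and tests were chosen with earlier results of these data known. Genes were named by a rule. Of each list it took up to 4 with the highest median ratio in the Krt5 contrast and the 1 with the lowest. Outside the lists it took the 15 with the highest lowest-library ratio and the 10 with the lowest highest-library ratio. It always took the rule genes, lineage markers and mutated genes, and between libraries the 5 with the widest ratio. Genes named in the Scgb1a1 contrast and between lineages, and Ccnd1, Cdkn1a, Npm1, Trp63, Krt5 and Tyms as uncalled examples, were chosen after their values were seen. Promoters were matched by symbol to the RefSeq table of GRCm38.p6 and serve for sequence only. 1 listed gene is not reported here.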

Additional observations from a re-analysis of the deposited data

Results flagged for a closer look

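Of 10072 genes measured in both the Krt5-gated and the Scgb1a1-gated contrast, 167 went one way in all 4 libraries of the first and the opposite way in all 4 of the second, and 2 of them were named by the rule. Neither was called in either contrast, and the difference between the contrasts was not tested. Ccno, the cyclin-like regulator of multiciliation, had 1 UMI in Krt5-gated proliferating cells (0, 0, 6.11 and 0 CPM in libraries 1 to 4), against 16.6, 19.6, 14.9 and 20.2 CPM, a median log2 ratio of -2.20. In Scgb1a1-gated proliferating cells Ccno had 36 UMIs (5.68, 98.2, 6.76 and 28.8 CPM), against 2.37, 2.42, 3.54 and 3.44 CPM, a median log2 ratio of 1.27. Hk2, a hexokinase, stood at 54.1, 60.0, 55.0 and 69.7 CPM in Krt5-gated proliferating cells, against 118, 121, 115 and 101 CPM (-0.98). In Scgb1a1-gated proliferating cells Hk2 stood at 28.4, 24.6, 16.9 and 24.3 CPM, against 18.0, 18.0, 14.1 and 17.9 CPM (0.36). The 9 proliferating cells with deuterosomal markers, which all had Ccno, fell 6 to the Scgb1a1 gate and 0 to the Krt5 gate, and their part in the Ccno result was not tested.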

How the results depend on the processing

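No paired analysis was possible because no result comes from a test; the contrasts already set the cells of each library against cells of the same library. The share of proliferating cells after thinning was 0.306%, 0.131%, 0.397% and 0.599% in libraries 1 to 4 and 0.384% in all. With 2 of 6 rule genes it was 0.922% in library 3 and 0.928% in all, and with 4 of 6 it was 0.772% in library 4 and 0.501% in all. Thinned, 30.0% of proliferating cells passed the Scgb1a1 gate and 5.84% had 3 S phase genes. The Krt13 gate gave 26.1% when halved and 7.97% when doubled, and the Ccdc153 gate 10.9% and 0.725%. Of genes apart between libraries, 217 were counted in Krt5-gated cells.

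Counts of called genes changed with several settings. Over all proliferating cells against others, 1 CPM gave 369 higher and 214 lower, 20 CPM gave 82 and 21, and thinning gave 144 and 194. There the lower count was 148 with TMM, 134 with DESeq2 size factors (165 higher), 285 as a mean over cells, 137 with 4 of 6 rule genes, 180 without cells with deuterosomal or leukocyte markers and 96 to 119 with a library left out. In the Krt5 contrast the lower count was 228 with 1 CPM, 64 with TMM, 237 when thinned, 18 against cells of similar depth and 69 to 105 with a library left out. With 20 CPM it was 59 higher and 8 lower, and with a minimum of 200 UMIs 50 higher. In the Scgb1a1 contrast 1 CPM gave 213 higher and 136 lower, 20 CPM 39 and 3, TMM 81 and 21, and thinning 65 and 314. A minimum of 200 UMIs gave 78 higher, a library left out 148 to 190 higher and 14 to 36 lower. The lower count was 7 as a mean over cells, 20 with 4 of 6 rule genes and 18 against cells of similar depth. Among single genes of that contrast, Cenpl (-0.49) reversed when thinned and Myb (-0.41) with 4 of 6 rule genes; the cause was not tested. Stmn1, Tubb5, Cenpf, Smc2, H2ac24 and Cks2 were called in the Krt5 contrast under every alternative run, and Anln, Cdca8, Cdc20 and Plk4 under all except the minimum of 200 UMIs, which they did not reach. The minimum of 200 UMIs and the omission of deuterosomal and leukocyte cells were chosen after seeing the data. DESeq2 size factors moved the median of all genes by -0.11 in the Krt5 and -0.25 in the Scgb1a1 contrast, and thinning by -0.19 and -0.59. Depth limits single-gene values most in library 2 of the Krt5 contrast, where 1 UMI is worth 8.56 CPM, and in library 1 of the Scgb1a1 contrast, at 5.68 CPM.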
